A study of Mus musculus with 35 samples.

Results

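The Hoxa genes described here, with Hoxb4 and the Meis and Pbx partners, are 9 genes chosen by name. They are Hoxa3, Hoxa5, Hoxa7, Hoxa9, Hoxa10, Hoxb4, Meis1, Pbx2 and Pbx3, of which 8 are among the 11982 genes of the expression table and all 8 passed the filter on low values. The table holds genes with an RPKM (reads per kilobase of transcript, scaled to the depth of the library) of 1 or more in at least 1 library, and Hoxa3 was not analysed here. The data are RNA-seq of hematopoietic stem/progenitor cells (HSPCs) from mouse bone marrow, with 2 libraries from wild-type (WT) mice and 2 from JMJD1B-/- mice. The JMJD1B-/- mice carry a gene trap in Jmjd1b (Kdm3b), which encodes a demethylase of the histone marks H3K9me2 and H4R3me2s, and both genotypes have the strain 129P2xC57BL/6J. The study's methods describe age-matched littermates of both sexes, 20 to 40 weeks old, and the gene trap is carried by the whole animal, so the other cells of the marrow carried it too. The comparison asks how the absence of JMJD1B changed these genes in HSPCs.

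Hox genes encode homeodomain transcription factors that lie in clusters, and the 5' genes of the Hoxa cluster together with Meis1 are known for their expression in hematopoietic stem and early progenitor cells, where they decline as cells differentiate. HOX proteins bind DNA weakly alone and gain affinity and specificity with partners of the TALE homeodomain class, the PBX and MEIS proteins. PBX proteins bind next to HOX on a joint site and MEIS can join the complex through PBX. The HOXA9, MEIS1 and PBX3 combination is also known from leukemia with MLL fusions.

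RefSeq promoters (GRCm38.p6, 250 bases before to 50 after each start) were matched for 8 of the 9 genes, Hoxa10 with 2 entries, and Pbx3 has none in that table. Promoters of 3 genes are printed because they span the CpG content of the group: Meis1, the most abundant transcript, Hoxa9, with the fewest CpG dinucleotides, and Hoxa5, with as many as any other promoter of the group. The bases in capitals are the CpG dinucleotides, the sequence runs 5' to 3' on the minus strand, and the positions are chr11:19018920-19019219 for Meis1, chr6:52227321-52227620 for Hoxa9 and chr6:52204538-52204837 for Hoxa5.
Meis1: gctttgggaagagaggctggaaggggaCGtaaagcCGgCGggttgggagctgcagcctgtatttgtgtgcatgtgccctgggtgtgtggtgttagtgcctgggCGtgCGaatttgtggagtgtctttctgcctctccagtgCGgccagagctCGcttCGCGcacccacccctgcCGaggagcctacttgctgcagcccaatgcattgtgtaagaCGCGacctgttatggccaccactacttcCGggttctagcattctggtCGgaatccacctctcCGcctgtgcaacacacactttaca
Hoxa9: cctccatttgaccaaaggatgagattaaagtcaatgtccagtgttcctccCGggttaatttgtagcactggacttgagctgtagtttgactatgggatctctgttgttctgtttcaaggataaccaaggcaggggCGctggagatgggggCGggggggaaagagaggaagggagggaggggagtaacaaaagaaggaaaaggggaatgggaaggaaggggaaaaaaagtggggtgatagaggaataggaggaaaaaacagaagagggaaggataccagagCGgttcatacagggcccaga
Hoxa5: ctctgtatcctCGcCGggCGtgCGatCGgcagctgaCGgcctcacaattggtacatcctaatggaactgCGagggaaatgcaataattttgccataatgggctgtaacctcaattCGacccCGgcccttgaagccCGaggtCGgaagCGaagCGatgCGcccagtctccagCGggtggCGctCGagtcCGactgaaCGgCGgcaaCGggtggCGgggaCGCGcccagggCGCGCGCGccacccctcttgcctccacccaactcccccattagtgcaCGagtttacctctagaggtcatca
The Meis1 promoter holds 15 CpG dinucleotides, the Hoxa9 promoter 4 and the Hoxa5 promoter 29, against a median of 7 over 32851 promoters of the same length. In the same windows Pbx2 has 29, Hoxa3 20, Hoxb4 14 and Hoxa7 9, and the 2 Hoxa10 entries have 12 and 21. Only the Hoxa9 promoter is below the median promoter in CpG count, and it is also the one with the lowest GC content of the group, 49.7% against 76% for Pbx2 and a median of 52.7% over all promoters. On both strands 3 short motifs were searched, the MEIS motif TGACAG (in 19.2% of all promoters), a PBX-HOX motif TGATNNAT (8.85%) and the posterior HOX motif TTTATNG (10.9%). A single match was found in the group, a MEIS motif in the Hoxa3 window that starts 13 bases before the transcription start, at position -13. The cluster genes lie close together on chromosome 6, the start of Hoxa5 8.48 kb on one side of that of Hoxa3 and those of Hoxa7, Hoxa9 and the distal Hoxa10 entry 5.51, 14.3 and 27.8 kb on the other.

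The targeted gene checked the labels: Kdm3b was at 31.0 and 24.3 RPKM in the WT libraries and at 4.00 and 4.63 RPKM in the JMJD1B-/- libraries (log2 fold change -2.65, limma, adjusted p = 0.0314). The RPKM steps of low genes gave library depths of 17492641 and 24574078 reads for WT and of 6105124 and 21020854 reads for JMJD1B-/-, so that JMJD1B-/- replicate 1 is the shallow library. Of the stem and progenitor markers, Kit was between 51.6 and 92.7 RPKM in the 4 libraries, while Ly6a (Sca-1) was between 0.629 and 2.96 RPKM and Procr between 0.180 and 1.47 RPKM. Markers of several cell types differed with genotype, read against all genes tested, of which 6.33% were called lower and 3.81% higher and 22.7% separated by genotype with JMJD1B-/- below and 20.1% with JMJD1B-/- above. The 8 erythroid markers were all above both WT libraries in both JMJD1B-/- libraries, 7 were called higher at an unadjusted p under 0.05, and their summed level was 182 and 252 RPKM in WT and 481 and 1053 RPKM in JMJD1B-/-. All 5 basophil and mast cell markers were called lower, with sums of 457 and 533 RPKM in WT and 96.5 and 41.7 RPKM in JMJD1B-/-, and 4 of 5 megakaryocyte markers were called lower, with sums of 616 and 562 against 235 and 339 RPKM. Of 7 granulocyte markers tested 4 were called lower (Mpo, Elane, Ctsg and Prtn3, of primary granules) and 2 higher (S100a8 and S100a9), with sums over the list of 268 and 182 against 82.4 and 53.1 RPKM, and Camp was at 0 in 2 libraries. Of 8 stem and progenitor markers 1, Cd34, was called lower, with sums of 144 and 140 against 102 and 133 RPKM. Monocyte markers (2 of 4 called lower) summed to 50.6 and 29.8 against 35.0 and 14.2 RPKM, and stroma and endothelium markers (2 of 5 called lower) to 38.2 and 67.4 against 24.0 and 9.97 RPKM. Of 6 T and NK cell markers 2 were called higher, and their sum was 34.9 RPKM in JMJD1B-/- replicate 1 and between 6.27 and 8.004 RPKM in the other libraries, while Cd79b, the one B cell marker listed, was called lower. The part of these cell types in the results that follow was not tested.

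Levels across the group covered a wide range (RPKM is per transcript length, so that genes can be compared). In WT HSPCs Meis1 was by far the most abundant, at 46.8 ± 10.1 RPKM (mean ± SD, n = 2 libraries, as for all means that follow), a level above that of 90.6% of the genes listed. Pbx2 followed at 12.7 ± 0.661 RPKM, above 56.9% of the genes listed. The Hox genes were low among the genes listed: Hoxa9 averaged 4.26 ± 1.81 RPKM, above 26.6% of them, and Hoxa10 0.728 ± 0.334 RPKM, above 3.19%. In the WT order Meis1, Pbx2, Hoxa9, Pbx3, Hoxb4, Hoxa7, Hoxa5, Hoxa10, the libraries of neighbouring genes overlapped for Hoxa9 and Pbx3 and for Hoxa7 and Hoxa5, and did not for the other neighbours. In JMJD1B-/- HSPCs the order was the same for Meis1, Pbx2 and Hoxa9 at the top and Hoxa10 at the bottom. Between them Hoxa5 stood at place 4, Pbx3 at 5, Hoxb4 at 6 and Hoxa7 at 7, and these 4 genes, whose means lay between 1.92 and 2.58 RPKM, overlapped with each other.

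**Figure D1:**
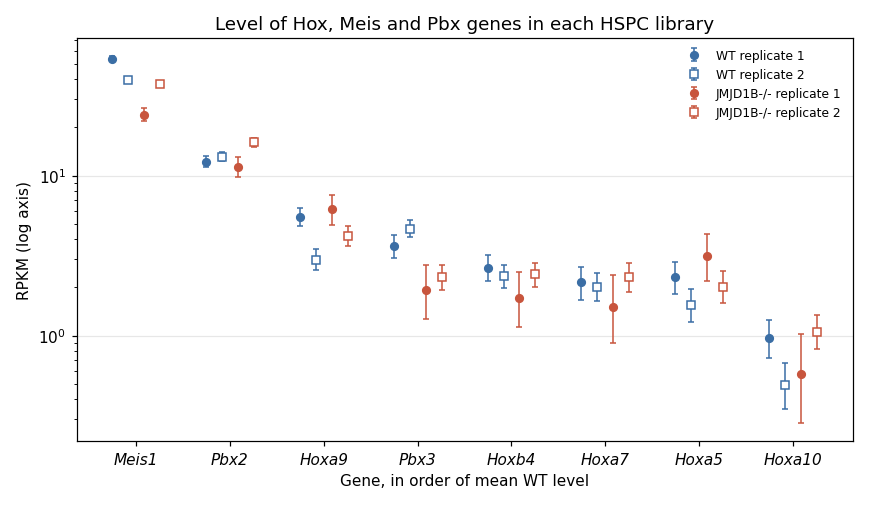
RPKM of the 8 genes (log axis) in each of the 4 HSPC libraries, genes ordered by mean WT level, with exact Poisson 95% intervals from the recovered reads as bars (counting error only). Both JMJD1B-/- libraries lie below both WT libraries for Meis1 and Pbx3, and the 2 genotypes overlap for the other 6 genes.

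Meis1 encodes the TALE factor that stabilizes HOX and PBX on DNA and is required for the maintenance of hematopoietic stem cells. It was at 53.9 and 39.7 RPKM in the WT libraries and at 24.1 and 37.4 RPKM in JMJD1B-/- replicates 1 and 2. The highest JMJD1B-/- value therefore stood just under the lowest WT value, and the exact Poisson intervals of these 2 libraries, 36.1 to 38.9 and 38.3 to 41.0 RPKM, overlapped. The mean fell to 30.8 ± 9.45 RPKM, 65.8% of WT, at an unadjusted p just under the threshold (log2 fold change -0.62, SE 0.27, limma, unadjusted p = 0.0499, adjusted p = 0.491). The size depended on which library was left out. The log2 fold change of Meis1 was -0.30 (limma, unadjusted p = 0.198) without the shallow JMJD1B-/- replicate 1. Leaving out JMJD1B-/- replicate 2 instead gave -0.94, with the shallow library as the only one of its genotype. The call was also lost without WT replicate 1 (-0.40, limma, unadjusted p = 0.299) and without WT replicate 2 (-0.84, limma, unadjusted p = 0.0515). In a bulk library fewer cells of a type and less RNA per cell cannot be told apart, here or in the results that follow.

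Pbx3, the PBX family member that is co-expressed with Hoxa9 and Meis1 in leukemia, was at 3.62 and 4.65 RPKM in WT and at 1.93 and 2.32 RPKM in JMJD1B-/-. All 4 libraries kept to their genotype, and the exact Poisson intervals of the nearest pair, 3.07 to 4.24 RPKM in WT replicate 1 and 1.92 to 2.78 RPKM in JMJD1B-/- replicate 2, did not overlap. Pbx3 fell from 4.14 ± 0.728 to 2.13 ± 0.277 RPKM, 51.5% of WT (log2 fold change -0.92, SE 0.37, limma, unadjusted p = 0.0400, adjusted p = 0.477). The reads behind these values numbered 152 and 275 in WT and about 28.4 and 117 in JMJD1B-/-. With every library kept, the call was lost with quantile normalization (limma, unadjusted p = 0.0881) and in a gene-by-gene test (unadjusted p = 0.0513). It was also lost with the replicate number as a block (limma, unadjusted p = 0.0787), and held in the other alternatives that keep every library. The log2 fold change of Pbx3 lay between -1.10 and -0.75 when a library was left out, and the call was lost without WT replicate 1 (limma, unadjusted p = 0.118), without WT replicate 2 (unadjusted p = 0.281) and without JMJD1B-/- replicate 1 (unadjusted p = 0.0516).

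Pbx2, a broadly expressed PBX factor, was at 12.2 and 13.2 RPKM in WT and at 11.3 and 16.1 RPKM in JMJD1B-/-. Its WT libraries lay between the 2 JMJD1B-/- libraries, and the means were 12.7 ± 0.661 and 13.7 ± 3.41 RPKM (log2 fold change 0.09, SE 0.25, limma, unadjusted p = 0.729). Within each library Pbx3 was set against Pbx2. The ratio of Pbx3 to Pbx2 was 0.296 and 0.354 in WT and 0.171 and 0.144 in JMJD1B-/-, 0.325 ± 0.0404 against 0.158 ± 0.0190. These ratios did not overlap between genotypes, and a ratio within a library does not depend on the scaling between libraries. Pbx2 and Pbx3 together summed to 15.8 and 17.8 RPKM in WT and to 13.2 and 18.4 RPKM in JMJD1B-/-, so the 2 JMJD1B-/- libraries lay on either side of the WT libraries. With 2 libraries against 2, an exact two-sided permutation test cannot reach p under 0.05, and the ratios and sums are given as values, with no test.

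Hoxa9, the 5' Hoxa gene most strongly tied to progenitor expansion, was at 5.54 and 2.98 RPKM in WT and at 6.14 and 4.20 RPKM in JMJD1B-/-. The genotypes interleaved, and the WT libraries alone differed 1.86-fold. The means of 4.26 ± 1.81 and 5.17 ± 1.37 RPKM gave a log2 fold change of 0.31 with an SE of 0.40 (limma, unadjusted p = 0.454). Without WT replicate 2 the difference turned to -0.12. The ratio of Hoxa9 to Meis1 within a library was 0.103 and 0.0752 in WT and 0.255 and 0.112 in JMJD1B-/-. The JMJD1B-/- ratios were both above the WT ratios, but that of JMJD1B-/- replicate 2 was close to that of WT replicate 1, and the mean of 0.184 ± 0.101 rests mainly on JMJD1B-/- replicate 1.

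**Figure D2:**
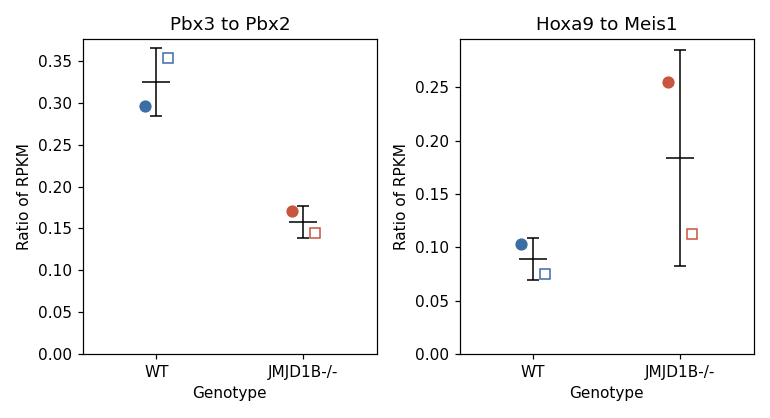
Ratio of the RPKM of Pbx3 to Pbx2 (left) and of Hoxa9 to Meis1 (right) within each library, by genotype (filled circles replicate 1, open squares replicate 2, black bars mean ± SD, n = 2). The Pbx3 to Pbx2 ratio is 0.296 and 0.354 in WT and 0.171 and 0.144 in JMJD1B-/-, while the Hoxa9 to Meis1 ratio has 1 JMJD1B-/- library at 0.255 and the other near WT.

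Hoxa10, the neighbour of Hoxa9 on its 5' side, was the lowest member, at 0.963 and 0.492 RPKM in WT and at 0.576 and 1.06 RPKM in JMJD1B-/-. It reached the 1 RPKM needed for the table only in JMJD1B-/- replicate 2. About 11.1 reads lay behind the value of JMJD1B-/- replicate 1 and between 38 and 70 behind the others. The log2 fold change of 0.16 had an SE of 0.78 (limma, unadjusted p = 0.845). It turned to -0.26 when WT replicate 2 was left out and to -0.23 when JMJD1B-/- replicate 2 was. No difference of Hoxa10 was detectable with these libraries. Its ratio to Hoxa9 was 0.174 and 0.165 in WT and 0.0938 and 0.252 in JMJD1B-/-, again with the WT libraries between the others.

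Hoxa7, a middle gene of the cluster, was at 2.15 and 2.02 RPKM in WT and at 1.51 and 2.33 RPKM in JMJD1B-/-. Its WT libraries were the closest of any member by ratio, 1.06-fold apart, and again lay between the JMJD1B-/- libraries (log2 fold change -0.15, SE 0.46, limma, unadjusted p = 0.759). Without JMJD1B-/- replicate 1 the value turned to 0.15, and quantile normalization turned it to 0.09.

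Hoxa5, which is known to favour myeloid over erythroid differentiation, had values of 2.32 and 1.56 RPKM in WT and 3.14 and 2.02 RPKM in JMJD1B-/-. It was at 1.94 ± 0.535 RPKM in WT and 2.58 ± 0.788 RPKM in JMJD1B-/- (log2 fold change 0.39, SE 0.46, limma, unadjusted p = 0.423). Replicate 1 was above replicate 2 in each genotype, and the values of the 2 genotypes interleaved.

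Hoxb4, the Hoxb gene known for expanding hematopoietic stem cells when overexpressed, was at 2.66 and 2.35 RPKM in WT and at 1.72 and 2.41 RPKM in JMJD1B-/-. JMJD1B-/- replicate 2 lay between the WT libraries. The mean in JMJD1B-/- was 2.07 ± 0.489 RPKM, 82.6% of WT, with a log2 fold change of -0.28 and an SE of 0.42 (limma, unadjusted p = 0.527). The 4 Hoxa genes summed to 10.97 and 7.06 RPKM in WT and to 11.4 and 9.61 RPKM in JMJD1B-/-, and Hoxa9 made up 50.5% and 42.3% of that sum in WT and 54.0% and 43.7% in JMJD1B-/-. The summed Hoxa level thus overlapped between genotypes and so did the share that Hoxa9 took of it.

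Of the 8 genes, 2 were lower (Meis1 and Pbx3) and 0 higher in JMJD1B-/- at an unadjusted p under 0.05, against 6.33% and 3.81% of the 11863 genes tested. No member passed an adjusted p of 0.05 in limma, as 0.0421% of all genes did, and a gene-by-gene test called 0 members at either threshold. Both JMJD1B-/- libraries were below both WT libraries for 2 of 8 members and above for 0, against 22.7% and 20.1% of all genes. In the lower direction the share of members whose libraries separated was thus near that over all genes, and in the higher direction none of the 8 separated. The log2 fold change was below 0 for Meis1, Pbx3, Hoxb4 and Hoxa7 and above 0 for Hoxa5, Hoxa9, Hoxa10 and Pbx2, with a median of -0.03 over the members and -0.02 over all genes tested. That median depended on the libraries: it was -0.34 without JMJD1B-/- replicate 2 (all genes -0.10), -0.23 without WT replicate 2 (all genes -0.03) and 0.06 without JMJD1B-/- replicate 1 (all genes 0.09), and 0.10 with quantile normalization (all genes 0.02). A minimum average of 1 RPKM, which leaves out Hoxa10, a gene in the table through JMJD1B-/- replicate 2 alone, gave -0.15 over the other 7 (all genes -0.02). TruSeq libraries of this kind do not mark the strand, so reads of a Hox gene and of an antisense transcript overlapping it cannot be told apart.

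**Figure D3:**
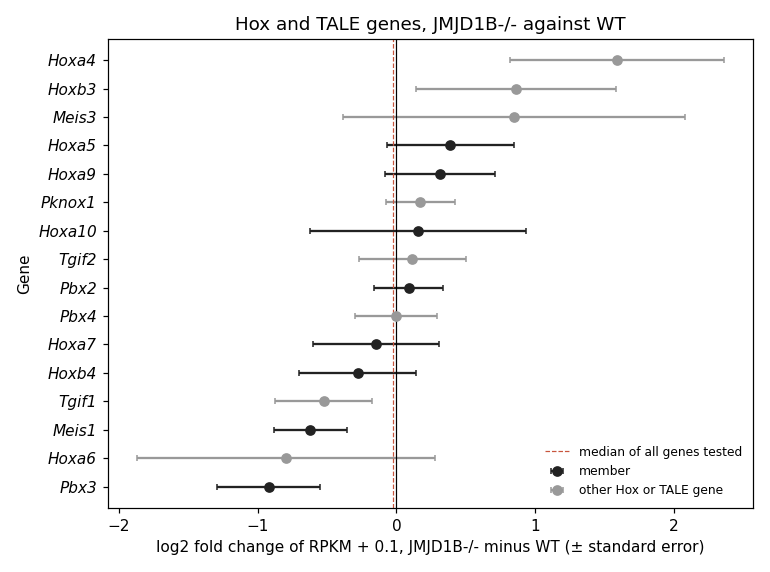
log2 fold change of RPKM + 0.1 (JMJD1B-/- minus WT, horizontal axis) ± SE for the 8 members (black) and 8 other Hox and TALE genes (grey), sorted by value, with the median of all genes tested as a dashed line. Meis1 at -0.62 and Pbx3 at -0.92 are the 2 members called at an unadjusted p under 0.05, while no grey gene was, and Hoxa4, Hoxb3 and Meis3 reached 1 RPKM, the level needed for the table, only in JMJD1B-/- libraries.

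The spread between replicates was set against the reads that the RPKM values stood for. The ratio of replicate 1 to replicate 2 had a 95% interval (exact, for counting error only) that left out 1 for 5 of 8 members in WT and for 4 of 8 in JMJD1B-/-. For Meis1, whose values rest on 508 to 3365 reads, the ratio was 1.36 (1.30 to 1.43) in WT and 0.643 (0.584 to 0.707) in JMJD1B-/-. Separate libraries hold more than counting error, and with this many reads a small difference leaves out 1, so the counts describe the spread and were not set against all genes. The Hoxa9 ratio was 1.86 (1.51 to 2.28) in WT and 1.46 (1.12 to 1.89) in JMJD1B-/-. Pbx2 had 0.929 (0.837 to 1.03) and 0.701 (0.598 to 0.820), and Pbx3 had 0.779 (0.633 to 0.950) and 0.832 (0.525 to 1.25). For Hoxb4 and Hoxa7 the interval held 1 in both genotypes, with 1.13 (0.880 to 1.45) and 0.713 (0.454 to 1.09) for Hoxb4 and 1.06 (0.769 to 1.45) and 0.649 (0.371 to 1.09) for Hoxa7. The JMJD1B-/- ratio of Hoxa7 was close to that of Meis1, but it rests on 18 reads in replicate 1, so that a spread of this size was not detectable at this depth.

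**Figure D4:**
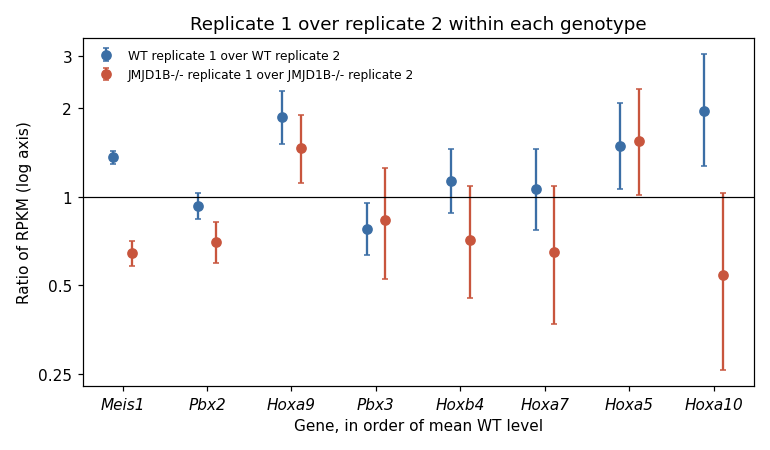
Ratio of the RPKM of replicate 1 to replicate 2 (log axis) for each member in WT and in JMJD1B-/-, with 95% intervals for counting error. The line marks a ratio of 1, which the interval leaves out for 5 of 8 members in WT and 4 of 8 in JMJD1B-/-.

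Genes whose pattern over the 4 libraries was nearest to Meis1, by the root mean square difference of log2 values centred on each gene's mean among 11212 genes, were Matk (0.02), Madd (0.03) and Arrdc4 (0.03). Matk, a tyrosine kinase of hematopoietic cells, was at 17.6, 13.1, 7.59 and 11.9 RPKM in WT replicates 1 and 2 and JMJD1B-/- replicates 1 and 2, the same order of libraries as for Meis1. For Hoxa9 the nearest were Acrbp, Tjp3 and Armc7, each at 0.08. Within a difference of 0.1 there were 67 genes for Meis1 and 5 for Hoxa9, over 4 libraries only.

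Of the 33 other Hox genes, 3 are listed, all low, and none was called. Hoxa4, which lies beside Hoxa5, was at 0.523 and 0.372 RPKM in WT and at 2.57 and 0.901 RPKM in JMJD1B-/-. Hoxb3 was at 0.902 and 0.393 RPKM in WT and 1.16 and 1.20 RPKM in JMJD1B-/-. Both reached the 1 RPKM needed for the table only in JMJD1B-/- libraries, so genes of this level were favoured for the table where they were high in that genotype, and nothing is read from their direction. Hoxa6, between Hoxa5 and Hoxa7, reached it only in WT replicate 1 and was at 1.47, 0.290, 0.206 and 0.562 RPKM in WT replicates 1 and 2 and JMJD1B-/- replicates 1 and 2. On a transcript of 2 kb 3 reads amount to 0.246 RPKM in JMJD1B-/- replicate 1, so values of this size carry few reads.

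Of 14 other TALE genes 5 are listed and 0 were called in either direction. Both JMJD1B-/- libraries were below both WT libraries for 1 of the 5 and above for 1, against 22.7% and 20.1% of all genes. Pbx4 was at 7.54 and 7.44 RPKM in WT and at 5.98 and 9.35 RPKM in JMJD1B-/-, so that its WT libraries lay between the others (log2 fold change -0.00245, SE 0.29, limma, unadjusted p = 0.994). Pknox1 (Prep1), a MEIS-related partner of PBX, was at 7.55 and 6.54 RPKM in WT and at 8.01 and 7.86 RPKM in JMJD1B-/- (log2 fold change 0.17, SE 0.25). Tgif2, a TALE repressor, was at 6.12, 5.69, 4.34 and 9.43 RPKM in WT replicates 1 and 2 and JMJD1B-/- replicates 1 and 2 (log2 fold change 0.12, SE 0.39), again with WT in between. Whether the change of Pbx3 differs from that of Pbx4 or Pbx2 was not tested.

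Genes known to act upstream of the Hoxa cluster (the MLL and menin complex, the DOT1L complex and related factors) were described next. Of 22 such genes 20 are listed, 0 were called lower and 1 higher, against 6.33% and 3.81% of all genes, and their median log2 fold change was -0.03. That median was 0.14 without JMJD1B-/- replicate 1 (all genes 0.09) and -0.16 without JMJD1B-/- replicate 2 (all genes -0.10). The 1 gene of 20 is near the share of all genes called higher. The gene called higher was Dpy30, a core subunit of the H3K4 methyltransferase complexes, which was at 13.1 and 18.4 RPKM in WT and at 25.4 and 22.7 RPKM in JMJD1B-/- (log2 fold change 0.63, SE 0.23, limma, unadjusted p = 0.0291, adjusted p = 0.438). Kmt2a, listed as Mll1, the methyltransferase itself, was at 32.1 and 26.8 RPKM in WT and at 25.2 and 27.8 RPKM in JMJD1B-/- (log2 fold change -0.15, SE 0.19), and was named after its values were seen. The 3 most abundant genes of this list were Npm1, Nsd1 and Psip1, whose log2 fold changes were 0.26 (SE 0.22), -0.04 (SE 0.17) and 0.19 (SE 0.21). Npm1, a nucleolar chaperone mutated in leukemias with high HOXA expression, was at 371 and 472 RPKM in WT and at 449 and 556 RPKM in JMJD1B-/-.

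Genes described as targets of HOXA9 or MEIS1 were read beside them. All 14 are listed, of which 5 were called lower and 0 higher at an unadjusted p under 0.05, against 6.33% and 3.81% of all genes, and none passed the adjustment over all genes, where the lowest adjusted p was 0.185 in limma. For 7 of the 14 both JMJD1B-/- libraries were below both WT libraries and for 1 both were above, against 22.7% and 20.1% of all genes, and the median log2 fold change was -0.50, against -0.02 over all genes tested. The target median was -0.27 without WT replicate 2 (all genes -0.03) and -0.30 without JMJD1B-/- replicate 2 (all genes -0.10). Cd34, the sialomucin of early progenitors, fell from 42.9 and 43.5 RPKM to 20.9 and 11.7 RPKM (log2 fold change -1.46, SE 0.28, limma, unadjusted p = 0.00109). Pf4, the platelet chemokine bound by MEIS1 and PBX proteins at its promoter, fell from 348 and 308 RPKM to 92.8 and 167 RPKM (log2 fold change -1.39, SE 0.28, unadjusted p = 0.00144). Both of these also stand in the marker lists above, Cd34 among stem and progenitor and Pf4 among megakaryocyte markers.

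Flt3, the cytokine receptor of early lymphoid and myeloid progenitors, was at 25.1 and 32.6 RPKM in WT and at 18.4 and 3.37 RPKM in JMJD1B-/- (log2 fold change -1.84, SE 0.67, limma, unadjusted p = 0.0265). Its JMJD1B-/- libraries were far apart, and the lower value was that of JMJD1B-/- replicate 2. Sox4, a transcription factor of progenitors, fell from 19.9 and 14.7 to 10.9 and 11.8 RPKM (log2 fold change -0.59, SE 0.23, unadjusted p = 0.0380), and Pim1, a survival kinase, from 41.1 and 49.1 to 35.7 and 28.8 RPKM (log2 fold change -0.49, SE 0.20, unadjusted p = 0.0449). Myb, among the most abundant of the list, was at 191 and 185 RPKM in WT and 137 and 211 RPKM in JMJD1B-/- (log2 fold change -0.14, SE 0.23), and Lmo2 at 127, 123, 118 and 158 RPKM (log2 fold change 0.13, SE 0.20). The count of 5 target genes called lower became 2 without WT replicate 1 and 3 without WT replicate 2, and was 7 and 5 when JMJD1B-/- replicate 1 or 2 was left out. The count over all genes moved as well, from 751 to 177, 272, 1309 and 1819 in the same order, so the counts of target genes are not read as changes of these genes. The erythroid, megakaryocyte, granulocyte and basophil marker sums given above moved with the same 2 genotypes, and their part in the levels of the target genes was not tested.

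**Figure D5:**
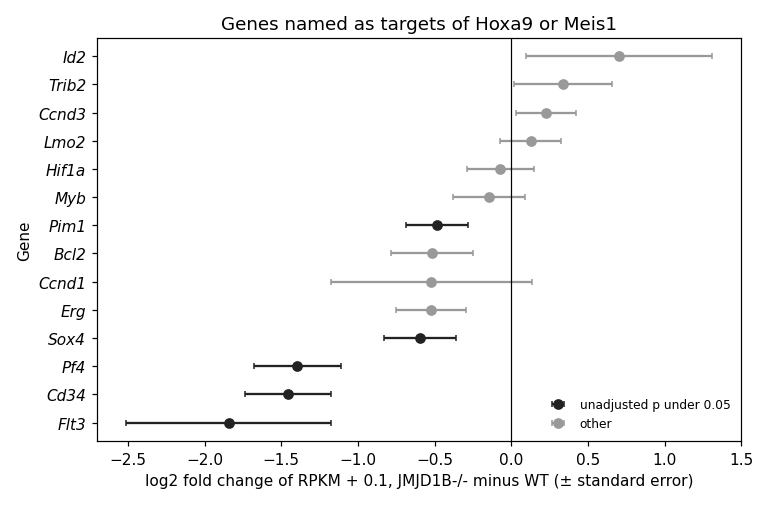
log2 fold change of RPKM + 0.1 (JMJD1B-/- minus WT, horizontal axis) ± SE for 14 genes described as targets of HOXA9 or MEIS1, sorted by value, those with an unadjusted p under 0.05 in black. The 5 black genes, Flt3, Cd34, Pf4, Sox4 and Pim1, all lie below 0.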

How the data were processed

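The authors deposited 1 RNA-seq table of RPKM values plus 1, and the 1 was subtracted. Per the labels, polyA RNA of HSPCs was prepared with a TruSeq RNA kit V2, and the submitters' processing notes name Novoalign, TopHat2 and mm9 without saying which was used for RNA. The program and annotation behind the counts are not given in the sources used here, nor whether a library pools animals. The limma p-values rest on the spread between 2 libraries of each genotype, drawn toward a trend fitted over all genes tested. Only the gene-by-gene test uses a gene's own spread alone. The 31 ChIP-seq samples of the series were not analysed here.

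The table holds 12024 entries under 11982 names, and 84 entries sharing 42 names were averaged, none of them a member. The low RPKM values were whole multiples of what 1 base of a read of 51 bases is worth (149 of 150 low genes), which gave each library's reads, from 6105124 to 24574078, a shortest possible transcript length for each member and the reads behind each value. A read length of 102 bases, as a multiple of 51, had whole numbers for as many genes, and the reads behind a value could then be fewer. If the true length is a multiple of the shortest one, the reads are as many times more. Intervals are exact Poisson 95% intervals and cover counting error only.

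The 11863 genes whose RPKM averaged 0.5 or more over the libraries were tested with limma 3.58.1 (R 4.3.3, trend, two-sided, Benjamini-Hochberg) on log2(RPKM + 0.1), which understates the change of low genes. The procedure was tested on simulated data. Alternatives were pseudocounts of 1 and 0.01, no filter or a minimum average of 1 RPKM, median-ratio and quantile scaling, no trend, a gene-by-gene test, the replicate number as a block, and each library left out. Named are all members, Kdm3b, the genes of each list with an unadjusted p under 0.05 or among the 3 highest means, and the 3 genes nearest to Hoxa9 and to Meis1 (average of 1 RPKM or more). Kmt2a was named besides, after its values were seen. Marker lists are given by their sums and counts, with Ly6a and Procr also named from the stem and progenitor list. The members and lists were chosen with earlier results of these data known. A single gene was left out of these lists and is not reported here.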

Additional observations from a re-analysis of the deposited data

How the results depend on the processing

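The count of 2 members lower at an unadjusted p under 0.05 became 1 with a pseudocount of 0.01, with a minimum average of 1 RPKM, with quantile normalization, without the trend and with the replicate number as a block, and 0 in the gene-by-gene test. It ranged from 0 to 2 when a library was left out, and the count of members at an adjusted p under 0.05 from 0 to 1, the 1 being Meis1 without JMJD1B-/- replicate 2. The count of target genes called lower, an alternative chosen after seeing the data, ranged from 2 to 7. Leaving out a library moved the count of all genes called lower from 751 to between 177 and 1819 and of those called higher from 452 to between 123 and 1258. Quantile normalization gave 714 lower and 671 higher genes and median-ratio scaling 747 and 632, while the libraries' median-ratio shifts ran from -0.09 to 0.10 on the log2 scale. The replicate numbers share only a name: the deviations of same-numbered libraries had a correlation of -0.0543 over 11863 genes. With the replicate number as a block, 914 genes were lower and 571 higher, Meis1 had a p of 0.00970 in limma and Pbx3 a p of 0.0787. Signs of log2 fold changes turned for Hoxa7 with quantile normalization (0.0852) and when a library was left out (-0.44 to 0.15), and on leaving out a library for Hoxa9 (-0.12 to 0.75), Hoxa10 (-0.26 to 0.58) and Pbx2 (-0.17 to 0.34). Over all 13 alternatives Meis1 stayed below 0, between -0.94 and -0.30, as did Pbx3, between -1.10 and -0.71, and Hoxb4, between -0.51 and -0.05, while Hoxa5 stayed above 0, between 0.09 and 0.69. The causes were not tested. A library left alone in its genotype is assumed to vary like the pair of the other genotype. Depth limits Hoxa10, Hoxa7, Hoxb4 and Pbx3 most, with 11.1 to 28.4 reads in JMJD1B-/- replicate 1.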
